A study of Mus musculus with 8 samples.

Results

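The 34 genes described here are listed marker genes of neutrophils and of monocytes and macrophages, measured in cultures labelled as mouse NK cells. They come from a list of names with no threshold on their values, and they are 34 of the 22180 genes that have a transcript cluster, the array's gene-level probe group, naming them alone. Each of the 34 had 1 such cluster, and 33 were bright enough to be tested among 13998 genes. Fcnb, a ficolin of neutrophil granules, was not tested. The list was read, when it was drawn up, as genes of other cells carried over into the cultures. At day 9, 20 of the 33 tested members were lower than in fresh cells and 5 were higher, where 22.0% of all tested genes were lower and 36.0% higher, and which cells made these RNAs was not tested, so the genes are called myeloid marker genes here and not contaminants.

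The study put 8 arrays (Affymetrix Mouse Gene 2.0 ST) on polyA RNA of mouse bone marrow from which T cells had been removed by selection for CD90, and compared fresh cells with cells kept in IL-2, the growth factor that expands NK cells. The day 0 group, titled naïve NK cells, is labelled with 0 days of activation, although the source name of every sample, these included, speaks of IL-2 activation. The day 4 and day 9 groups were the adherent cells after 4 or 9 days in 1000 IU/mL of IL-2, with IL-2 added again after day 4 for the longer culture. The day 9 KU55933 group was cultured in the same way and received, from day 4, 7.5 µM of KU55933, an inhibitor of the DNA damage kinase ATM. Each group had 2 arrays, labelled biological replicates, and none carried a genetic change that the labels name. How the fresh NK cells were isolated, and the strain and age of the mice, are not stated, nor whether the untreated day 9 cells received vehicle. Fresh cells and adherent cells were also collected differently, so the time in IL-2 and the selection for adherence cannot be told apart.

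Neutrophils fill their granules in order as they mature in the marrow: primary granules carry elastase and myeloperoxidase, and the secondary and later granules carry lactoferrin, cathelicidin and gelatinases. Monocytes and macrophages make lysozyme, cathepsins and the phagocyte oxidase, and carry receptors for growth factors, antibodies and microbial sugars. NK cells belong to the lymphoid lineage, and most of these proteins are not part of their usual equipment, although activated NK cells and other cells can make some of them.

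Values are log2 RMA signals (a robust average over the probes of a cluster, normalised between arrays by the authors), and each difference is one of group means ± its standard error, with n = 2 arrays per group. A gene rose or fell where limma's test, adjusted by the Benjamini-Hochberg method over all 13998 genes, gave an adjusted p below 0.05. The array medians lay between 3.66 and 3.91, and a signal below the median is treated as dim: where one group was dim, the fold is given as "at least", with the dim signal set to the array median, and where both were, no fold is given. Signals of different genes depend on their probes, so levels were compared within a gene and not between genes. An adjusted p given after "without" comes from the same fit with that 1 array left out. Replicate arrays correlated at 0.976 in the day 0 group and at 0.991 to 0.994 in the other groups.

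Each of 20 NK cell genes was at or above the array median, a low bar, on every array. Ncr1, the receptor NKp46, lay between 10.26 and 10.87. The mean of the 20 stayed between 9.60 and 9.77, with moves in both directions. On day 4, 7 were higher and 7 lower than on day 0, where 37.5% and 22.4% of all tested genes were. On day 9, 8 were higher and 7 lower than on day 0, where 36.0% and 22.0% were. Gzmb had means of 9.56 on day 0 and 12.53 on day 4, and Itga2 of 9.31 and 7.12. The share of NK cells in the cultures was not tested. All 7 tested B cell genes and all 5 tested megakaryocyte genes were lower on day 4 and on day 9 than on day 0, as were 6 of 8 dendritic cell genes and 7 of 10 T cell genes, where 22.4% and 22.0% of all tested genes were lower on the 2 days. Of 3 tested erythroid genes, 2 were lower on day 4 and 3 on day 9. Within the T cell list, Cd3e and Cd3g went the other way and read 7.25 to 8.79 and 7.28 to 9.43 over the 8 arrays. The summed linear signal of the 9 B cell genes was 1450 and 1570 on the day 0 arrays, 331 and 504 on day 4, 113 and 118 on day 9, and 104 and 106 with KU55933. That of the 5 megakaryocyte genes was 2180 and 2420, 129 and 171, 77.3 and 83.2, and 81.5 and 84.5 in the same order. These lists fell beside the macrophage genes described below, and their part in those results was not tested.

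The 6 promoter windows below introduce the genes of 3 of the roles described below. They are RefSeq sequences of the GRCm38.p6 assembly, from 250 bases before to 50 bases after each gene's start. The primary granule genes Elane (chr10:79886062-79886361, + strand) and Mpo (chr11:87793534-87793833, + strand) are shown with GAGGAA in capitals, the core that the myeloid factor PU.1 binds.
Elane: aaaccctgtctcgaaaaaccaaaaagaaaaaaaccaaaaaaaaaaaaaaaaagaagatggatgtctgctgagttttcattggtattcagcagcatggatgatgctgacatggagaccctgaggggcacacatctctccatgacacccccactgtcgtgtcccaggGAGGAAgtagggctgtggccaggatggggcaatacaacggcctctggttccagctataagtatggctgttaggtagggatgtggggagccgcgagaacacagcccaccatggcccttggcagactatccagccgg
Mpo: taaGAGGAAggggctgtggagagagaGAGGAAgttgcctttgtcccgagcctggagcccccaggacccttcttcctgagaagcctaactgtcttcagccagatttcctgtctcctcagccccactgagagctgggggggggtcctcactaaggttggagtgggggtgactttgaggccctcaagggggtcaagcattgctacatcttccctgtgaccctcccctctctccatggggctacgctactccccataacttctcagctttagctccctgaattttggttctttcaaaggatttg
The secondary granule genes Ngp (chr9:110419558-110419857, + strand), Ltf (chr9:111019042-111019341, + strand) and Mmp8 (chr9:7558179-7558478, + strand), with the C-type lectin gene Clec4e (chr6:123289822-123290121, - strand), are shown with TTGCNNAA or its reverse form TTNNGCAA in capitals, a form of the site that C/EBP factors bind.
Ngp: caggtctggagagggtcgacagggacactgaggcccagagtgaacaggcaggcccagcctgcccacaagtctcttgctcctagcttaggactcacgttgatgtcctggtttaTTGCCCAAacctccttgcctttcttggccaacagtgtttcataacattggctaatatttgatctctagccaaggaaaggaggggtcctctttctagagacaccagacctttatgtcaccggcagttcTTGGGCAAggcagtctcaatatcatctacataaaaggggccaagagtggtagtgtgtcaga
Ltf: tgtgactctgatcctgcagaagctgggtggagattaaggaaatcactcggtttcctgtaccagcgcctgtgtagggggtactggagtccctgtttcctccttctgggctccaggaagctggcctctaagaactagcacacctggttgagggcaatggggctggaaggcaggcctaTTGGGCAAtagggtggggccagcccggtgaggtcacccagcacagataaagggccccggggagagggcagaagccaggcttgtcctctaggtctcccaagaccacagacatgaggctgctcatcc
Mmp8: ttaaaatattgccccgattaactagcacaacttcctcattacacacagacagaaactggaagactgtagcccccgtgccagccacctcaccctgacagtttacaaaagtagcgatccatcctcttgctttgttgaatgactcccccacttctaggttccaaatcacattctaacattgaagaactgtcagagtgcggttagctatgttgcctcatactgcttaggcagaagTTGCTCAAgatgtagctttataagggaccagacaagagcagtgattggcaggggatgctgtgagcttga
Clec4e: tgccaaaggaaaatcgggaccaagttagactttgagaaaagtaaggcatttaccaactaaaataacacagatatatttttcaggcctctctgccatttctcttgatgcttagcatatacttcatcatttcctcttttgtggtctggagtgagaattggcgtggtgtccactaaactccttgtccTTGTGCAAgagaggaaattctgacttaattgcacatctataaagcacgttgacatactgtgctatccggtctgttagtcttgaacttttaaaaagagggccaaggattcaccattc

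A window was listed for 28 of the 34 genes. Searched on both strands, GAGGAA (reverse TTCCTC) stood in the windows of 20 of the 28, 71.4%, against 28.3% of all 32851 windows. TTGCNNAA (reverse TTNNGCAA) stood in 9 of 28, 32.1%, against 10.8% of all windows, and the TATA box word TATAAA (reverse TTTATA) in 9 of 28, 32.1%, against 13.6%. The words were chosen with their matches in view. In Mmp8 the C/EBP word begins 19 bases before the start, and in Clec4e it lies 66 bases before the start with a TATAAA at 29 bases before it. These matches describe letters in a window and say nothing of binding.

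By day 4 in IL-2, the tested granule members of neutrophils were higher than in fresh cells, while lysozyme and cathepsin S were lower. The 8 macrophage surface receptors were split, with 3 higher and 3 (Csf1r, Mrc1 and Sirpa) lower, and a median difference of -0.19. Of the 33 tested members 20 rose and 6 fell, where 37.5% of all tested genes rose and 22.4% fell, 59.9% in either direction. The median difference over the members was 1.03, against 0.08 over all genes. Centring each array on its median over the tested genes moved all differences of this comparison by -0.35, after which 18 members rose and 8 fell and no called member changed direction, while among all genes called the share that was higher went from 62.6% to 40.4%. The uncalled Cxcr2 and Mpeg1 turned from 0.12 and 0.18 to -0.23 and -0.17. The test needed 2 arrays at or above the median, and Ngp, Camp, Mmp8, Retnlg, Chil3, Msr1 and Clec4d reached that through their day 4 arrays, so a high day 4 level was a condition of their being tested. Of the 26 other members 14 rose and 6 fell, with a median of 0.72. In bulk RNA, fewer cells of a type and less RNA per cell cannot be told apart, here and in every comparison below.

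**Figure D1:**
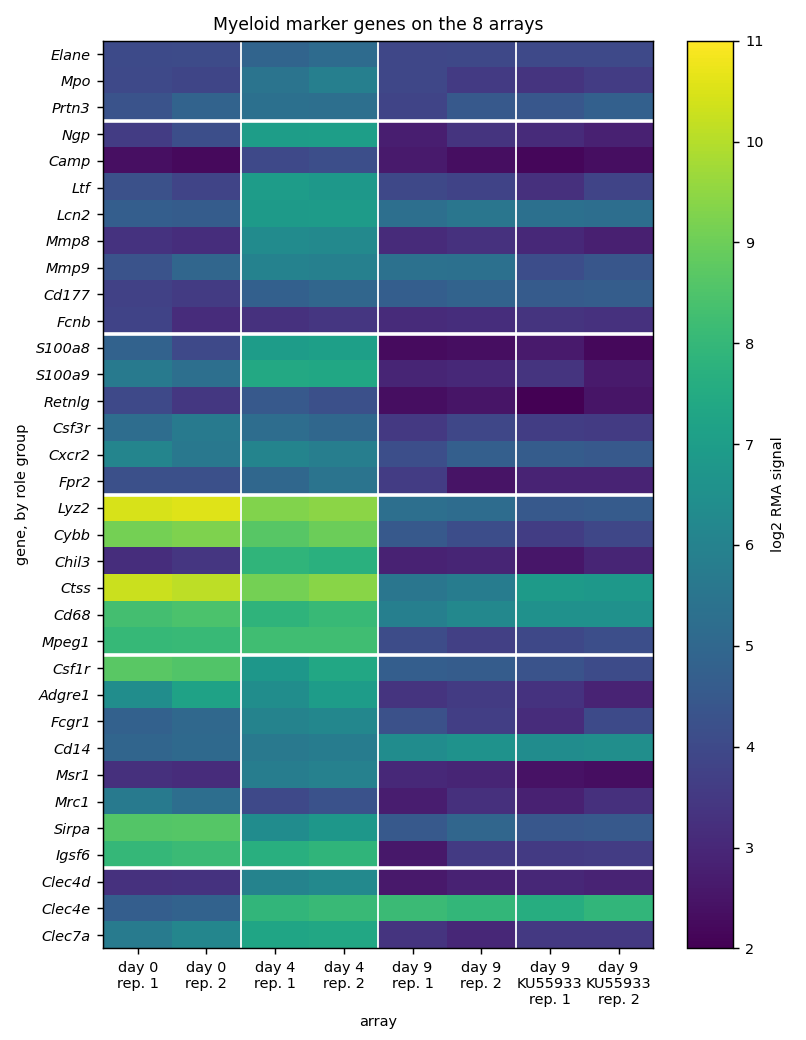
Log2 RMA signal of the 34 myeloid marker genes (rows, grouped by role) on the 8 arrays (columns, 2 per group), with colour giving the signal. All 34 members except Fcnb were at or above the array median on both day 4 arrays, against 23 on both day 0 arrays, 15 on both day 9 arrays and 14 on both KU55933 arrays.

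All 3 primary granule genes rose on day 4 and fell again by day 9, a course of 10.8% of all tested genes. Day 9 was not called different from day 0 for any of them as deposited, while after centring Elane (-0.35, adjusted p = 0.0344) and Prtn3 (-0.65, 0.0402) were called lower, Prtn3 also without day 9 replicate 2 (-0.76, 0.0422). Mpo, myeloperoxidase, read 3.99 and 3.87 on day 0, 5.46 and 5.88 on day 4, 3.93 and 3.54 on day 9, and 3.36 and 3.59 with KU55933. It was dim on day 9 apart from 1 array, and its day 4 arrays stood above every other array. It rose 3.35-fold (1.75 ± 0.19, adjusted p = 0.000106) and fell 3.83-fold by day 9 (-1.94 ± 0.19, adjusted p = 0.000228). Elane, neutrophil elastase, read 4.01 and 4.07 on day 0, 4.91 and 5.14 on day 4, 3.90 and 3.94 on day 9, and 3.97 and 4.00 with KU55933. It rose 1.97-fold (0.98 ± 0.12, adjusted p = 0.000187) and fell 2.15-fold (-1.10 ± 0.12, adjusted p = 0.000376), with no overlap between the day 4 arrays and the others. Prtn3, proteinase 3, stood next to Elane in the RefSeq gene order. It rose by 0.71 ± 0.26 (adjusted p = 0.0451) and fell by 1.13 ± 0.26 (adjusted p = 0.0140) by day 9. The rise of Prtn3 was not called after centring (0.36, adjusted p = 0.192) or quantile normalisation (0.74, 0.0551). Nor was it called with array weights (0.0873) or without a filter on dim genes (0.0645). Its rise missed the threshold without day 0 replicate 1 (adjusted p = 0.234), day 4 replicate 1 (0.154), day 4 replicate 2 (0.119) or either KU55933 array (0.0587), and its fall without day 4 replicate 1 (0.0837), day 4 replicate 2 (0.0688) or day 9 replicate 1 (0.0810).

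The 7 tested genes of the secondary and later granules all rose on day 4, by 1.22 to 3.14, where 37.5% of all tested genes rose. Ngp, Camp and Mmp8 were tested through their day 4 arrays, so a high day 4 level was a condition of their test. Ltf, Lcn2, Mmp9 and Cd177 were not, and each of them rose. Ngp, neutrophilic granule protein, read 3.60 and 4.17 on day 0, 7.00 and 7.04 on day 4, 2.76 and 3.34 on day 9, and 3.09 and 2.83 with KU55933. The day 4 arrays stood far above all others, and the rest were close to or below the array median. It rose 8.80-fold (3.14 ± 0.24, adjusted p = 1.73e-05) and fell at least 9.95-fold by day 9 (-3.97 ± 0.24, adjusted p = 1.84e-05). Ltf, the iron-binding protein lactoferrin, read 4.22 and 3.83 on day 0, 6.99 and 6.79 on day 4, 3.95 and 3.80 on day 9, and 3.26 and 3.85 with KU55933. It rose 7.27-fold (2.86 ± 0.21, adjusted p = 1.59e-05) and fell 8.08-fold (-3.01 ± 0.21, adjusted p = 4.29e-05), and its day 0 and day 9 arrays overlapped. Mmp8, neutrophil collagenase, read 3.32 and 3.18 on day 0, 6.34 and 6.25 on day 4, 3.09 and 3.30 on day 9, and 3.03 and 2.78 with KU55933. It rose at least 5.24-fold (3.05 ± 0.14, adjusted p = 2.04e-06) and was dim on every array outside day 4. Camp, the antimicrobial cathelicidin, read 2.36 and 2.24 on day 0, 3.97 and 4.15 on day 4, 2.64 and 2.34 on day 9, and 2.17 and 2.34 with KU55933. Its rise, 1.76 ± 0.14 (adjusted p = 2.39e-05), took it just over the array median, and with dim signals raised to the median the difference was 0.16 and not called (adjusted p = 0.190).

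Lcn2, Mmp9 and Cd177 were above day 0 at day 9 too. Lcn2, the iron-scavenging lipocalin NGAL that many cell types can make, read 4.70 and 4.62 on day 0, 6.91 and 6.94 on day 4, 5.29 and 5.53 on day 9, and 5.33 and 5.25 with KU55933. The groups did not overlap between days: it rose 4.81-fold by day 4 (2.27 ± 0.12, adjusted p = 3.92e-06), fell 2.86-fold by day 9 (-1.51 ± 0.12, adjusted p = 8.33e-05) and still stood 1.68-fold above day 0 (0.75 ± 0.12, adjusted p = 0.00107). Cd177, a surface protein of neutrophils, read 3.74 and 3.55 on day 0, 4.76 and 4.98 on day 4, 4.69 and 4.85 on day 9, and 4.59 and 4.67 with KU55933. It was dim on both day 0 arrays and above the median on the others, with a rise of 1.22 ± 0.13 (adjusted p = 0.000106), and a day 9 minus day 4 difference of -0.10 ± 0.13 (adjusted p = 0.638), which was not called. Mmp9, gelatinase B, read 4.30 and 4.98 on day 0, 6.00 and 5.92 on day 4, 5.35 and 5.31 on day 9, and 4.13 and 4.40 with KU55933. It rose by 1.32 ± 0.21 (adjusted p = 0.000958) by day 4 and stood 0.69 ± 0.21 (adjusted p = 0.0238) above day 0 on day 9. This second difference was not called after centring (0.46, adjusted p = 0.0722) or in a fit of only the 4 arrays compared (0.0664). That second difference lost its call without day 0 replicate 1 (0.35, adjusted p = 0.0763), day 9 replicate 1 (0.0868) or day 9 replicate 2 (0.0686). The day 9 minus day 4 difference of Mmp9 was -0.63 ± 0.21 (adjusted p = 0.0632), not called, but it was called without either day 0 array (0.00762), in a fit of only the 4 arrays compared (0.00733), and with array weights (0.00954), a filter at percentile 75 (0.0347) or a mean-variance trend (0.0467). Fcnb was dim on every array, with signals of 3.09 to 3.82.

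**Figure D2:**
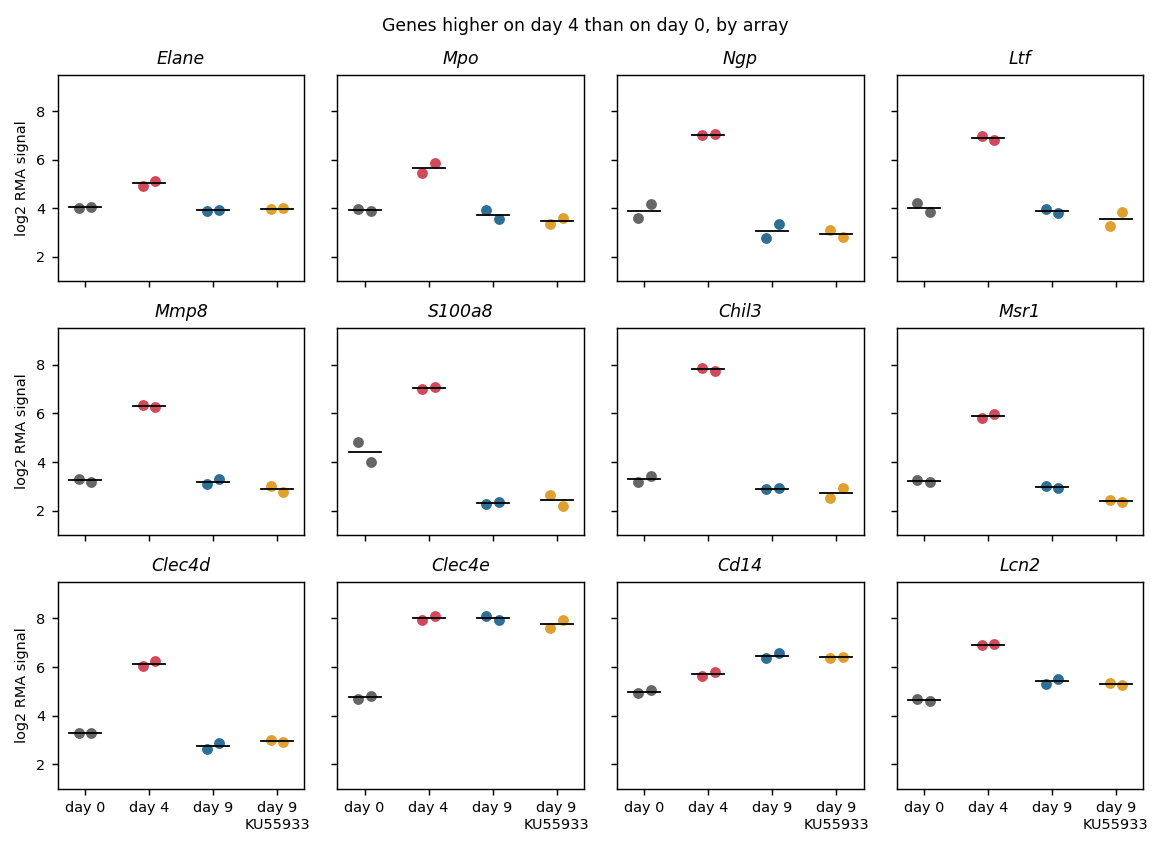
Log2 RMA signal of 12 members that rose by day 4, by group, with points for arrays and lines for group means. The day 4 arrays of Ngp, Mmp8 and Chil3 lie at 6.25 to 7.88, above every other array of those genes.

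Of the 6 genes of neutrophil cytosol and surface, 3 rose on day 4 and all 6 were lower on day 9 than on day 0. Among all tested genes 37.5% rose on day 4 and 22.0% were lower on day 9 than on day 0. S100a8, which with S100a9 forms the calcium-binding protein calprotectin, read 4.84 and 4.00 on day 0, 6.99 and 7.07 on day 4, 2.26 and 2.35 on day 9, and 2.65 and 2.20 with KU55933. It rose 6.11-fold (2.61 ± 0.26, adjusted p = 7.26e-05) and then fell by 4.73 ± 0.26 (adjusted p = 1.21e-05). Its neighbour S100a9 read 5.66 and 5.28 on day 0, 7.42 and 7.35 on day 4, 2.92 and 3.03 on day 9, and 3.37 and 2.65 with KU55933. It rose by 1.92 ± 0.23 (adjusted p = 0.000191) and fell by 4.42 ± 0.23 (adjusted p = 9.29e-06). The day 9 arrays of both genes lay below the day 0 arrays and below the array median. Retnlg, a resistin-like secreted protein of neutrophils, read 3.99 and 3.47 on day 0, 4.52 and 4.18 on day 4, 2.32 and 2.52 on day 9, and 1.97 and 2.52 with KU55933. It was not called on day 4 (0.62 ± 0.24, adjusted p = 0.0538), though it passed without day 0 replicate 1 (0.89, adjusted p = 0.0251) or either KU55933 array (0.0418), and it fell by 1.93 ± 0.24 (adjusted p = 0.000820) by day 9. With dim signals raised to the median Retnlg was called higher on day 4 (0.41, adjusted p = 0.0221) and no longer lower on day 9 than on day 0 (-0.24, 0.136). Fpr2, a formyl peptide receptor, read 4.19 and 4.19 on day 0, 5.00 and 5.46 on day 4, 3.61 and 2.49 on day 9, and 2.91 and 2.90 with KU55933. Its rise on day 4 (1.03 ± 0.32, adjusted p = 0.0252) lost its call without day 0 replicate 1 (0.0835), day 0 replicate 2 (0.0798) or day 4 replicate 2 (0.142). Its lower level on day 9 than on day 0 (-1.15 ± 0.32, adjusted p = 0.0166) lost its call without either day 0 array (0.0627 and 0.0598). After centring the day 4 rise of Fpr2 was 0.69 and not called (adjusted p = 0.110). With array weights neither the rise of Fpr2 (0.0826) nor its lower level on day 9 than on day 0 (0.0695) was called. Csf3r, the G-CSF receptor, and Cxcr2, a receptor for neutrophil-attracting chemokines, differed by -0.34 and 0.12 between day 0 and day 4, neither called, and fell 2.63-fold and 2.83-fold by day 9. Csf3r was called lower on day 4 without day 0 replicate 1 (-0.57, adjusted p = 0.0397), after centring (-0.68, 0.00916) and after quantile normalisation (-0.58, 0.0352).

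Of the 6 genes listed under lysosome, oxidase and secretion of monocytes and macrophages, 3 fell and 1, Chil3, rose by day 4. Among all tested genes 22.4% fell and 37.5% rose. Chil3 was tested through its day 4 arrays, and which cells made the RNAs of these 6 genes was not tested. On day 9, 5 were lower than on day 0, where 22.0% of all tested genes were, with a median difference of -4.35 for the 6. Lyz2, lysozyme M, read 10.45 and 10.56 on day 0, 9.30 and 9.45 on day 4, 5.29 and 5.18 on day 9, and 4.52 and 4.58 with KU55933. The groups were in the order day 0, day 4, day 9, KU55933, with no overlap. It fell 2.20-fold by day 4 (-1.14 ± 0.12, adjusted p = 7.63e-05) and stood 38.6-fold below day 0 on day 9 (-5.27 ± 0.12, adjusted p = 2.19e-07). Ctss, the lysosomal protease cathepsin S, read 10.27 and 10.12 on day 0, 9.13 and 9.41 on day 4, 5.54 and 5.78 on day 9, and 6.90 and 6.79 with KU55933. It was 23.1-fold lower on day 9 than on day 0 (-4.53 ± 0.14, adjusted p = 5.22e-07), and the KU55933 arrays lay above the day 9 arrays. Cybb, the gp91 subunit of the phagocyte oxidase, read 9.13 and 9.26 on day 0, 8.67 and 8.99 on day 4, 4.52 and 4.13 on day 9, and 3.64 and 3.93 with KU55933. Its day 4 arrays were not called different from day 0 (-0.37 ± 0.18, adjusted p = 0.120), and its day 9 arrays were 22.7-fold lower than day 4 (-4.50 ± 0.18, adjusted p = 3.19e-06). Cybb was called lower on day 4 after centring (-0.71, adjusted p = 0.0122) and after quantile normalisation (-0.85, 0.00775). Mpeg1, the pore-forming protein perforin-2 of macrophages, read 8.03 and 8.08 on day 0, 8.23 and 8.23 on day 4, 4.08 and 3.69 on day 9, and 3.95 and 4.17 with KU55933. It was not called between day 0 and day 4 (0.18 ± 0.15, adjusted p = 0.348) and fell 20.3-fold by day 9 (-4.34 ± 0.15, adjusted p = 2.42e-06).

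Chil3, the secreted chitinase-like protein Ym1, read 3.17 and 3.44 on day 0, 7.88 and 7.73 on day 4, 2.87 and 2.92 on day 9, and 2.53 and 2.93 with KU55933. It was dim in every group but day 4, rose at least 15.0-fold (4.51 ± 0.16, adjusted p = 1.13e-06) and fell at least 17.2-fold by day 9 (-4.91 ± 0.16, adjusted p = 2.12e-06). Its day 9 level was not called different from day 0 (-0.41 ± 0.16, adjusted p = 0.0629), but was called lower after centring (-0.64, adjusted p = 0.00649), with a filter at percentile 75 (-0.41, 0.0376), and without day 0 replicate 1 (-0.54, 0.0404) or either KU55933 array (0.0448). Chil4 is a close copy of Chil3, Lyz1 of Lyz2, and the Sirpb1 genes resemble Sirpa, so which copy the probes read is uncertain. Cd68, a lysosomal membrane protein of macrophages, fell by 0.42 ± 0.15 (adjusted p = 0.0359) by day 4, and its day 9 minus day 4 difference was -1.93 ± 0.15 (adjusted p = 5.73e-05). Its first fall lost its call without day 0 replicate 2 (0.113), day 4 replicate 1 (0.210) or either KU55933 array (0.0586).

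**Figure D3:**
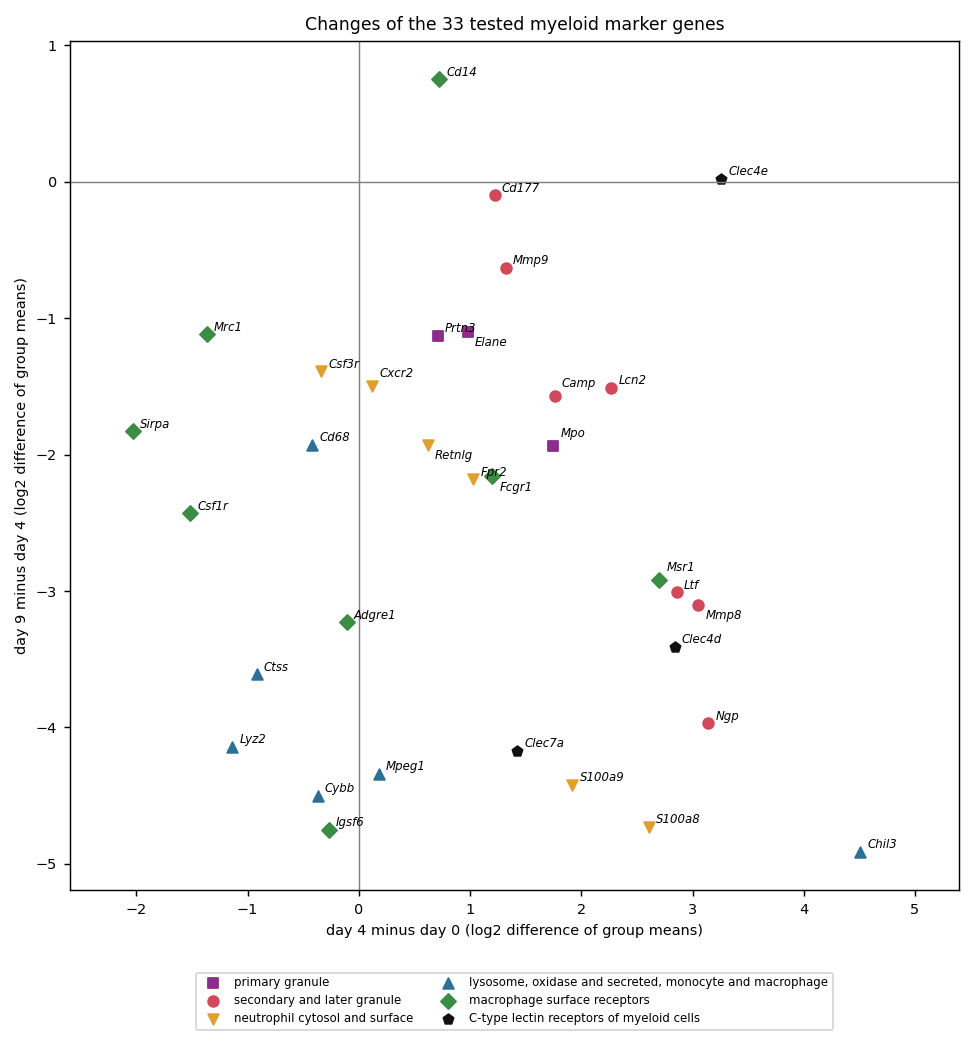
Log2 difference of day 4 minus day 0 (horizontal) against day 9 minus day 4 (vertical) for the 33 tested members, 1 point per gene, coloured by role. Clec4e and Cd14 are the points at or above 0 on the vertical axis, with 0.02 and 0.75, and Chil3 lies farthest right and lowest, at 4.51 and -4.91. The axes share the day 4 arrays.

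Among the 8 macrophage surface receptors 3 rose and 3 fell by day 4, where 37.5% and 22.4% of all tested genes did. Between day 4 and day 9, 7 of 8 fell, where 15.6% of all tested genes did. Msr1, among the 7, was tested through its day 4 arrays. Csf1r, the receptor for the macrophage growth factor M-CSF, read 8.68 and 8.55 on day 0, 6.78 and 7.40 on day 4, 4.69 and 4.62 on day 9, and 4.29 and 4.06 with KU55933. It fell 2.88-fold by day 4 (-1.52 ± 0.20, adjusted p = 0.000324) and stood 15.6-fold below day 0 on day 9 (-3.96 ± 0.20, adjusted p = 2.99e-06). Sirpa, the receptor for the don't-eat-me signal CD47, read 8.59 and 8.61 on day 0, 6.38 and 6.76 on day 4, 4.51 and 4.96 on day 9, and 4.44 and 4.51 with KU55933. It fell 4.09-fold by day 4 (-2.03 ± 0.18, adjusted p = 3.70e-05) and 3.56-fold more by day 9 (-1.83 ± 0.18, adjusted p = 0.000244). Mrc1, the mannose receptor CD206, read 5.72 and 5.24 on day 0, 3.97 and 4.25 on day 4, 2.71 and 3.26 on day 9, and 2.82 and 3.24 with KU55933. It fell 2.58-fold by day 4 (-1.37 ± 0.25, adjusted p = 0.00176) and was dim in both day 9 groups. With dim signals raised to the median, its day 9 minus day 4 difference was -0.40 and not called (adjusted p = 0.121). The further fall to day 9 (-1.12 ± 0.25, adjusted p = 0.0118) lost its call without day 4 replicate 2 (0.0869) or day 9 replicate 1 (0.0758).

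Igsf6, an immunoglobulin-family protein of myeloid cells, read 8.01 and 8.12 on day 0, 7.68 and 7.90 on day 4, 2.57 and 3.52 on day 9, and 3.53 and 3.60 with KU55933. It was not called on day 4 (-0.27 ± 0.27, adjusted p = 0.411) and was at least 20.6-fold lower on day 9 than on day 0 (-5.02 ± 0.27, adjusted p = 3.74e-06). After quantile normalisation Igsf6 was called lower on day 4 (-0.79, adjusted p = 0.0367). Adgre1, the macrophage marker F4/80, read 6.40 and 7.20 on day 0, 6.41 and 6.96 on day 4, 3.34 and 3.57 on day 9, and 3.32 and 2.91 with KU55933. It too was not called on day 4 (-0.11 ± 0.29, adjusted p = 0.766), and on day 9 it was dim, at least 8.54-fold below day 0 (-3.34 ± 0.29, adjusted p = 3.81e-05). Msr1, a scavenger receptor of macrophages, read 3.24 and 3.16 on day 0, 5.83 and 5.97 on day 4, 3.03 and 2.94 on day 9, and 2.45 and 2.34 with KU55933. It was dim in every group but day 4, rose at least 3.99-fold (2.70 ± 0.12, adjusted p = 1.67e-06) and fell at least 4.58-fold (-2.92 ± 0.12, adjusted p = 3.06e-06).

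Fcgr1, the high-affinity antibody receptor CD64, rose by 1.20 ± 0.29 (adjusted p = 0.00856) by day 4 and fell by 2.16 ± 0.29 (adjusted p = 0.00130) by day 9. The rise lost its call without day 0 replicate 1 (0.0505), and its lower level on day 9 than on day 0 (-0.96 ± 0.29, adjusted p = 0.0232) without day 0 replicate 1 (0.0502), day 0 replicate 2 (0.102) or day 9 replicate 2 (0.131). Cd14, the co-receptor for bacterial lipopolysaccharide, read 4.92 and 5.07 on day 0, 5.65 and 5.79 on day 4, 6.36 and 6.58 on day 9, and 6.37 and 6.43 with KU55933. It was higher at each step, by 0.72 ± 0.13 (adjusted p = 0.00155) and then by 0.75 ± 0.13 (adjusted p = 0.00367), and ended 2.77-fold above day 0 (1.47 ± 0.13, adjusted p = 3.49e-05).

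The 3 C-type lectin receptors, which bind fungal and mycobacterial sugars and lipids, all rose by day 4, where 37.5% of all tested genes did. Clec4d was tested through its day 4 arrays, while Clec4e and Clec7a were not. Clec4e, the receptor Mincle, read 4.69 and 4.83 on day 0, 7.93 and 8.11 on day 4, 8.12 and 7.95 on day 9, and 7.62 and 7.93 with KU55933. It rose 9.58-fold (3.26 ± 0.15, adjusted p = 1.99e-06) with day 9 arrays in the same range and a day 9 minus day 4 difference of 0.02 ± 0.15 (adjusted p = 0.954). Its neighbour on chromosome 6, Clec4d, the receptor MCL, read 3.29 and 3.31 on day 0, 6.03 and 6.25 on day 4, 2.62 and 2.86 on day 9, and 3.01 and 2.91 with KU55933. It rose at least 4.72-fold (2.84 ± 0.13, adjusted p = 2.32e-06) and by day 9 was dim again, at least 5.42-fold lower (-3.41 ± 0.13, adjusted p = 3.06e-06). The difference between the 2 genes was not tested. Clec7a, the beta-glucan receptor dectin-1, read 5.73 and 6.12 on day 0, 7.28 and 7.41 on day 4, 3.37 and 2.99 on day 9, and 3.50 and 3.51 with KU55933. It rose 2.67-fold (1.42 ± 0.17, adjusted p = 0.000218) and fell at least 12.5-fold by day 9 (-4.17 ± 0.17, adjusted p = 3.64e-06). Clec4d was called lower on day 9 than on day 0 (-0.56 ± 0.13, adjusted p = 0.00709), though dim in both groups. With dim signals raised to the median the difference was -0.20 and not called (adjusted p = 0.129). It was -0.44 without day 9 replicate 1.

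Between day 0 and day 9, 20 of the 33 tested members fell and 5 rose, where 22.0% of all tested genes fell and 36.0% rose (58.0% in either direction), and the members' median was -1.15 against 0.09. The 5 that rose were Clec4e, Cd14, Cd177, Lcn2 and Mmp9. After centring, 24 members fell and 4 rose, and the share higher among all genes called went from 62.0% to 46.8%. Between day 4 and day 9, 29 members fell and 1, Cd14, rose, where 15.6% of all tested genes fell and 12.2% rose (27.8% in either direction), with medians of -2.18 and -0.01. After centring the members' counts were the same, while the share higher among all genes called went from 43.9% to 58.9%. Of the 26 members not tested through their day 4 arrays, 22 fell and 1 rose between day 4 and day 9, with a median of -2.05. The summed linear signal of the 34 members was 5520 to 5640 on day 0, 4640 to 5190 on day 4, 920 to 947 on day 9 and 889 to 950 with KU55933, a sum in which bright genes such as Lyz2 and Ctss weigh most. On the mean log2 scale the day 4 arrays stood above the day 0 arrays, with 5.46 to 5.47 on day 0 and 6.39 to 6.52 on day 4.

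Taken step by step, 16 members rose and then fell, 6 fell at both steps and 7 were not called by day 4 and then fell. Among all tested genes these 3 courses were 10.8%, 2.44% and 2.39%. Without the 7 members tested through their day 4 arrays, the counts were 10, 6 and 6 of 26. The remaining 4 rose by day 4 and were not called lower afterwards: Mmp9, with the exceptions given above, Cd177 and Clec4e were not called between day 4 and day 9, and Cd14 rose again. The steps share the day 4 arrays. Ngp, S100a8, S100a9, Fpr2, Fcgr1, Clec4d and Clec7a rose, fell and were called below day 0 on day 9. For Ngp that difference, -0.83, was not called in a fit of only the 4 arrays compared (adjusted p = 0.0571). It was -0.55 without day 0 replicate 2 and -0.54 without day 9 replicate 1. Clec4d was dim on both day 0 and day 9, and its difference was not called with dim signals raised to the median.

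With KU55933, 2 of the myeloid markers changed at day 9. Ctss rose and Lyz2 fell, 1 of 33 in each direction, where 0.750% of all tested genes rose and 0.236% fell, 0.986% in either direction. After centring 1 rose and 1 fell as before, and the share higher among all genes called went from 76.1% to 58.7%. The members' median difference was -0.14 against 0.02 for all genes. Ctss stood 2.27-fold higher (1.18 ± 0.14, adjusted p = 0.0191), and Lyz2 1.60-fold lower (-0.68 ± 0.12, adjusted p = 0.0459). Neither gene's arrays overlapped between the treated and untreated groups, but both calls were lost when single arrays were left out. Ctss missed the threshold without either day 4 array (0.0504), day 9 replicate 1 (0.166), day 9 replicate 2 (0.0792), KU55933 replicate 1 (0.183) or KU55933 replicate 2 (0.175), and Lyz2 without the same arrays, at 0.116 to 0.324. Lyz2 was also not called with the replicate number as a block (adjusted p = 0.0828).

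Mmp9 differed with KU55933 by -1.07 ± 0.21 (adjusted p = 0.0764), which missed the threshold, and it was called without either day 0 array (0.0163). Msr1, dim in both groups, differed by -0.59 ± 0.12 (adjusted p = 0.0720) and was not called. It was called with a filter at percentile 75 (0.0246) or array weights (0.0298). Cd68 differed by 0.53 ± 0.15 (adjusted p = 0.187) and Cybb by -0.54 ± 0.18 (adjusted p = 0.287). The granule genes Elane, Ngp and Lcn2 differed by 0.07, -0.09 and -0.12, with standard errors of 0.12, 0.24 and 0.12, and none was called. Cd14 and Clec4e, bright on day 9, differed by -0.07 ± 0.13 (adjusted p = 0.890) and -0.26 ± 0.15 (adjusted p = 0.549). For 14 of the 33 members both day 9 groups were dim, so no fold is given for them.

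**Figure D4:**
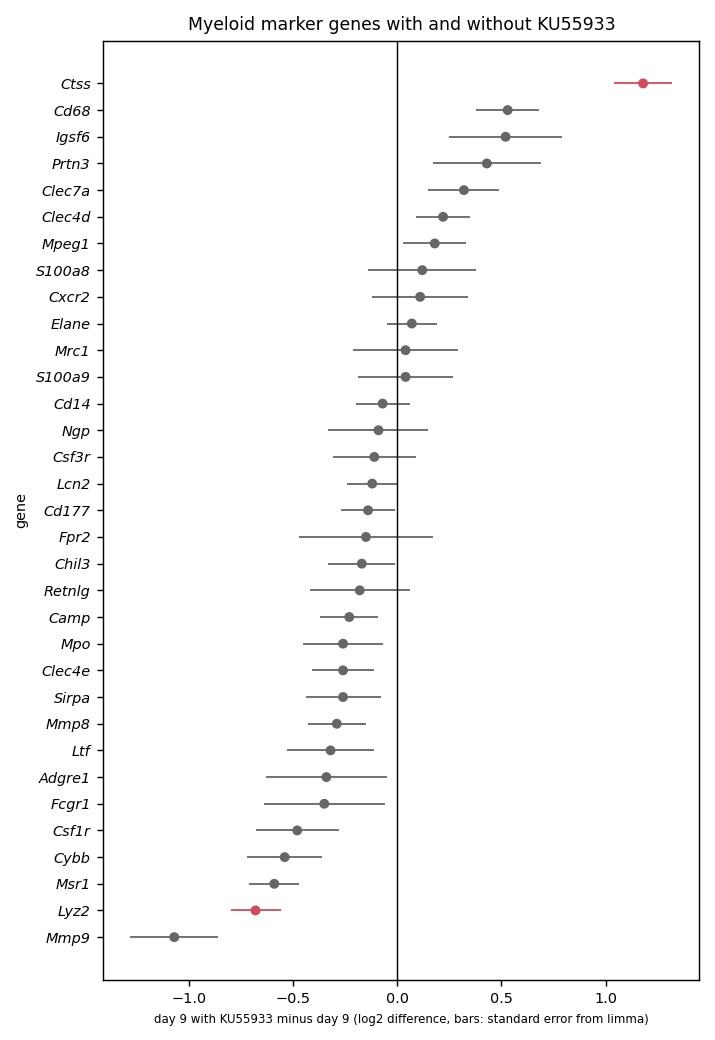
Log2 difference of day 9 KU55933 minus day 9 for the 33 tested members, with bars for the standard error of the difference (n = 2 arrays per group). Ctss (1.18) and Lyz2 (-0.68) are the called members, and Mmp9 (-1.07) is not.

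Against day 4, the KU55933 cells had 29 members lower and 1 higher, where 13.7% and 12.3% of all tested genes were, 26.0% in either direction. Against day 0 they had 21 lower and 4 higher, where 21.9% and 37.3% were, 59.1% in either direction. Of the 21, Chil3 and Msr1 were dim in both groups. With dim signals raised to the median, Chil3, Msr1 and Retnlg were not called (adjusted p = 0.0704, 0.0704 and 0.102). After centring 27 were lower and 4 higher than on day 0, and the share higher among all genes called went from 63.0% to 43.3%. The higher member against day 4 was Cd14, and it missed the threshold once day 4 replicate 1 was left out (0.61, adjusted p = 0.0582). With dim signals raised to the median, Mrc1 differed from day 4 by -0.43 and was not called (adjusted p = 0.107). These comparisons share the day 4 or day 0 arrays with those above.

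Of 28 tested further granule and neutrophil genes, 11 rose and 6 fell by day 4, where 37.5% and 22.4% of all tested genes did, and 9 rose and 9 fell by day 9 against day 0, where 36.0% and 22.0% did. Ctsg, cathepsin G of primary granules, rose at both steps, where Elane, Mpo and Prtn3 rose and then fell. It read 5.03 and 4.19 on day 0, 6.38 and 6.49 on day 4, 10.90 and 10.96 on day 9, and 10.83 and 10.91 with KU55933. It stood 79.7-fold above day 0 on day 9, by 6.32 ± 0.24 (adjusted p = 1.01e-06), with the day 9 arrays far above all earlier ones. In the RefSeq gene order Ctsg lies on chromosome 14 between Mcpt8 and Gzme, a mast cell and basophil protease gene and a granzyme gene. Mcpt8 read 5.43 and 6.22 on day 0, 8.90 and 8.96 on day 4, 9.29 and 9.32 on day 9, and 8.28 and 8.32 with KU55933. Whether the probes of Ctsg read its neighbours was not tested. Il1b, the cytokine interleukin-1 beta, fell by 4.54 between day 0 and day 9, and Stfa2l1, a stefin of neutrophils, dim on day 0, rose at least 2.01-fold by day 4. Anxa1, Ltb4r1 and Serpinb1a were, like Ctsg, among the 9 that rose by day 9 against day 0, by 2.54, 3.57 and 2.53. Between the KU55933 and day 9 groups 1 gene rose and 1 fell, where 0.750% and 0.236% of all tested genes did. Ly6g, a neutrophil surface marker, was higher by 1.77 ± 0.20 (adjusted p = 0.0166), which is at least 2.98-fold. Itgam, the integrin CD11b that NK cells also carry, was 2.72-fold lower (-1.44 ± 0.11, adjusted p = 0.00316). Whether these calls hold with single arrays left out was not examined.

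Of 37 tested further monocyte and macrophage genes, 18 fell and 13 rose by day 4, where 22.4% and 37.5% of all tested genes did, and 26 fell and 7 rose by day 9 against day 0, where 22.0% and 36.0% did. Hpgd, a prostaglandin-degrading enzyme, and Vcam1, an adhesion molecule of marrow macrophages, were already at least 12.8-fold and 6.91-fold lower on day 4, when Hpgd was dim. Gpnmb, a glycoprotein of lipid-handling macrophages, rose at least 13.3-fold by day 4 (3.95 ± 0.23, adjusted p = 4.86e-06), and C1qb, a chain of complement C1q, fell 9.61-fold between day 4 and day 9 (-3.26 ± 0.22, adjusted p = 2.92e-05). Lgals3 was among the 7 that rose by day 9 against day 0, by 2.44 ± 0.11 (adjusted p = 1.67e-06). With KU55933 against day 9, 2 of the 37 were lower and 0 higher, where 0.236% and 0.750% of all tested genes were. They were Ccl9, a chemokine (-1.60 ± 0.15, adjusted p = 0.00647), and Itgax, the integrin CD11c that NK cells also carry (-1.02 ± 0.12, adjusted p = 0.0172). Here too, leaving out single arrays was not examined. Of 12 myeloid transcription factors and growth factor receptors, 9 fell and 1 rose by day 4, where 22.4% and 37.5% of all tested genes did. Spi1, which encodes PU.1, read 7.42 and 7.54 on day 0, 5.73 and 5.81 on day 4, 3.91 and 4.25 on day 9, and 4.02 and 4.07 with KU55933. It fell 10.6-fold by day 9 against day 0 (-3.40 ± 0.14, adjusted p = 1.31e-06), while Klf4 and Cebpb fell by 4.13 and 2.69 by day 4.

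**Figure D5:**
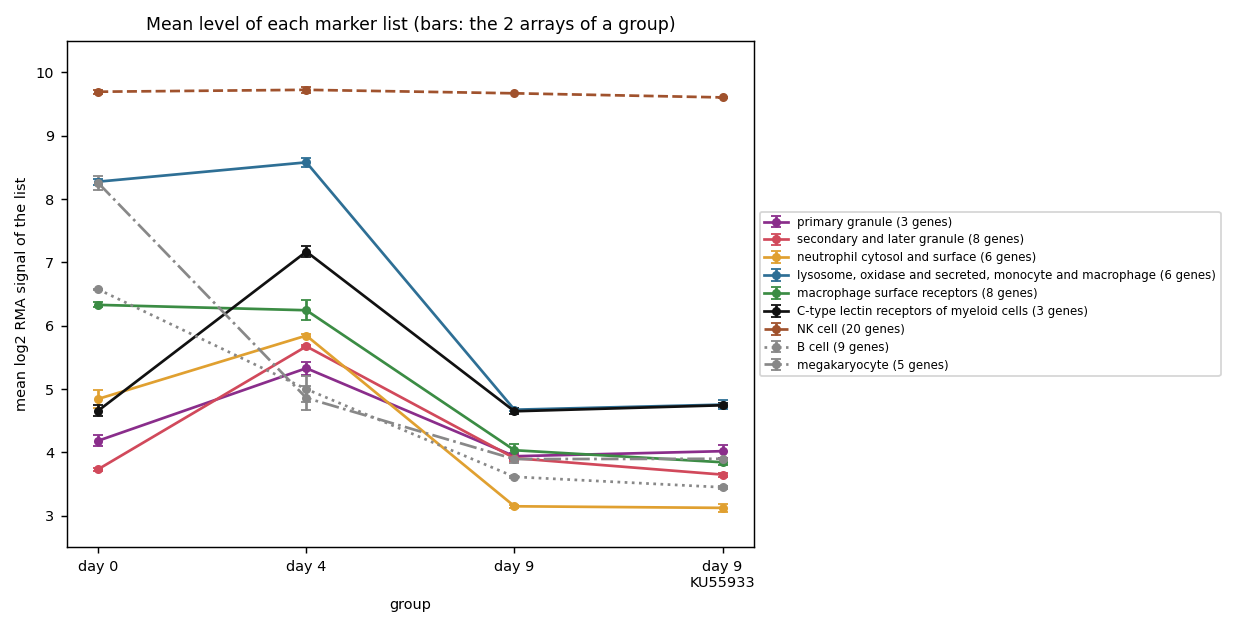
Mean log2 RMA signal of each marker list by group, with bars for the range of the 2 arrays. The NK cell list stays between 9.60 and 9.77. The granule, neutrophil cytosol and surface, and C-type lectin lists peak on day 4. The lysosome, oxidase and secreted list also has its highest mean then, with 8.23 to 8.32 on day 0 and 8.51 to 8.65 on day 4. It drops to 4.65 to 4.70 on day 9.

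Over the 8 arrays, the tested genes outside the lists whose profile was most like the mean of the 10 tested granule members were Ska3, Kif18a, Hmmr, Gm6340, Ube2c, Fbxo5, Bub1b, Plk1, Mtfr2 and Pmf1, with Pearson correlations of 0.988 to 0.993 among 1567 candidates. Plk1, a mitotic kinase, had group means of 5.98, 9.78, 5.64 and 5.80 in the order day 0, day 4, day 9 and KU55933. Closest to the mean of the 8 macrophage surface receptors were Cfp, Lpcat2, H2bc18, Cxcl9, Thbs1, Tgfbi, Hmgb2, Ly86, Crip1 and Tpm4, at 0.977 to 0.998. Cfp, the complement factor properdin, had group means of 6.90, 6.72, 4.81 and 4.74. The points share 4 groups, so these correlations mostly restate the order of the group means.

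The authors' deposited table of their own comparison over the 4 groups listed 32 of the 34 members, without Fcnb and Prtn3. In the authors' deposited table the false discovery rate was 0.000418 to 0.0595 for the members and below 0.05 for 31 of them. The table listed 11036 of the 41345 clusters, none with a rate above 0.0998, so every listed gene had a low rate. The share of all listed clusters below 0.05 was not counted.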

How the data were processed

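RNA from 8 arrays in 4 groups of 2 was analysed. The authors deposited log2 RMA signals per transcript cluster, made with Transcriptome Analysis Console per the submitters' processing notes. They also deposited a table of group averages with p-values and false discovery rates (FDR), whose averages lay within 0.00500 of the means of 2 arrays. The annotation build is not given in the sources used here. Of 41345 clusters, 23521 name 1 gene symbol, 1820 several and 16004 none, and 1 cluster per gene, with the highest mean over the 8 arrays, was kept.

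Genes at or above the array median on at least 2 arrays, 13998 in all, were fitted with limma 3.58.1 in R 4.3.3 over all 8 arrays without covariates, with 4 residual degrees of freedom, and tested with Benjamini-Hochberg adjustment. The fit was tested on simulated data with independent noise and a far smaller share of changed genes than was called here between days. That simulation therefore does not show the error rate in these data. The labels call the arrays biological replicates without naming animals, and their number limits the precision. Signals are relative, with no counts behind them.

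All members are accounted for. Members called in a comparison whose group means span at least 2 (up to 5 per role), and 8 fixed names, are given on every array with any gene whose call needed it. Further myeloid genes were picked among those with the lowest adjusted p of their list in a comparison, and not all of those are named. The members and lists were chosen with earlier results of these data known. Alternatives were other filters, centring, quantile normalisation, array weights, a mean-variance trend, a fold minimum, a replicate block, only the 4 arrays compared, leaving out each array, and raising dim values to the median.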

Additional observations from a re-analysis of the deposited data

How the results depend on the processing

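Of the 198 differences of members, 138 were called, and 117 kept their call in all refits. All 138 kept their direction, while uncalled differences could change sign, as those of Cxcr2 and Mpeg1 for day 4 minus day 0 did after centring (-0.23 and -0.17). Leaving out 1 array at a time gave 18 to 20 members higher and 5 to 7 lower for day 4 minus day 0, 4 to 5 and 17 to 21 for day 9 minus day 0, and 1 and 27 to 30 for day 9 minus day 4. For KU55933 against day 9 it gave 0 to 1 higher and 0 to 2 lower, against day 4 0 to 1 and 28 to 29, and against day 0 4 and 19 to 22. Requiring a fold of at least 2 left 3 members higher on day 9 than day 0, 0 higher on day 9 than day 4, 0 lower with KU55933 than on day 9, 0 higher with KU55933 than on day 4 and 2 higher than on day 0.

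For KU55933 against day 9, fitting only the 4 arrays compared called 0 higher and 0 lower. The number lower was 0 without a filter on dim genes, 3 with the filter at percentile 75, 0 after quantile normalisation, 2 with a mean-variance trend, 3 with array weights and 0 with the replicate block. The replicate numbers did not pair the samples: deviations of same-numbered arrays correlated at -0.03 to 0.05. With the block, 20 members were higher and 6 lower for day 4 minus day 0, 5 and 20 for day 9 minus day 0, and 1 and 29 for day 9 minus day 4. The causes of these changes were not tested. Raising dim values to the array median was chosen after seeing the data, and signal near the array median limits what the day 9 arrays can show.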
